A study of Mus musculus with 18 samples.

Results

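The genes described here are 4 keratins (Krt7, Krt8, Krt18 and Krt19), vimentin (Vim), nestin (Nes) and corneodesmosin (Cdsn), which are 7 of the 54347 genes in the count table of an RNA-seq experiment on mouse marrow-derived mesenchymal stem cells (MSC). They were picked by symbol, with earlier results of the same libraries known. Cdsn was chosen from its measured rise under CK666 and Krt19 from its measured fall in cells given an Arp4 siRNA together with CK666. Their values in any comparison that shares libraries with those contrasts are therefore given as a description, with no test. There they enter no count of called members, except where the closing section follows counts across settings. The other members belong to the same structural families, or are the usual partners of those genes in a filament.

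MSC are stromal precursors that grow attached to plastic and give rise to bone, fat and cartilage, and these came from male C57BL/6J mice. In the first experiment untransfected cells were left untreated (control), were exposed to CK666, which blocks Arp2/3, the complex that nucleates side branches of actin, or received cytochalasin D (CytoD), a fungal compound that blocks growth of actin filaments. In the second experiment all cells were transfected, with a control siRNA labelled as a mock (siControl), with 1 siRNA against Arp4 (siArp4), or with the Arp4 siRNA followed by CK666 (siArp4+CK666). Arp4 is an actin-related protein of the nucleus, the product of the gene Actl6a. Each of the 6 groups held 3 libraries. The study describes them as distinct preparations of cells. Its reporting summary names a primary cell line, made from 6 male mice, as the source for all its work. The p-values therefore measure the spread between preparations, not between animals. CK666 on siControl cells was not analysed here, so every statement on CK666 in transfected cells concerns cells with less Arp4.

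Intermediate filaments are ropes of coiled-coil proteins that give cells mechanical strength, and they make up a network of the cytoskeleton beside actin filaments and microtubules. Keratins build filaments only as pairs of a type I and a type II protein. Krt8 (type II) with Krt18 (type I) is the pair of simple epithelia, and Krt7 (type II) and Krt19 (type I) often accompany it there. Vimentin, a type III protein, is the main filament protein of mesenchymal cells such as MSC and fibroblasts, and nestin, a type IV protein that needs vimentin or a like partner to assemble, marks neural and other progenitor cells and some stromal cells of the marrow. Corneodesmosin is not a filament protein. It is secreted by keratinocytes and glues the outermost cells of the skin together at corneodesmosomes, the junctions derived from desmosomes.

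The promoter sequences of the members that carried the results are shown because Krt7 and Nes were lower under both compounds, Vim was by far the most abundant member, and Cdsn had the widest range. They are the 250 bases before the RefSeq start (build GRCm38.p6, plus strand for all 4), in lower case with searched motifs in capitals. Krt7 lies at chr15:101412153-101412402, Nes at chr3:87970843-87971092, Vim at chr2:13574061-13574310 and Cdsn at chr17:35551878-35552127.
Krt7: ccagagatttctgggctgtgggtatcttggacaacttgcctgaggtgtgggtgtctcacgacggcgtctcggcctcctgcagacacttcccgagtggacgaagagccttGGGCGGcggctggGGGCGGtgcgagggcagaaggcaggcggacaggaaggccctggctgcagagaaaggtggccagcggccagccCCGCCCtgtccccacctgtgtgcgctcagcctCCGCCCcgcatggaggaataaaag
Nes: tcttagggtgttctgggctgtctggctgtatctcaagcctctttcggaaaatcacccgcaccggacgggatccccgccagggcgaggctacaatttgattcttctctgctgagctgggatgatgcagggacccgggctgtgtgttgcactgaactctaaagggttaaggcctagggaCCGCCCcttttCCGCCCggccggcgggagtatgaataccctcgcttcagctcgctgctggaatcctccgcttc
Vim: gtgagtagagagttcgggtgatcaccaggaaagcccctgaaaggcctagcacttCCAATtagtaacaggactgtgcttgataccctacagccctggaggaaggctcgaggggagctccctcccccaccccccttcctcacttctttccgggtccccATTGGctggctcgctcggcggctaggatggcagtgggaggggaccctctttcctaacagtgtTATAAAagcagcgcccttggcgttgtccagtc
Cdsn: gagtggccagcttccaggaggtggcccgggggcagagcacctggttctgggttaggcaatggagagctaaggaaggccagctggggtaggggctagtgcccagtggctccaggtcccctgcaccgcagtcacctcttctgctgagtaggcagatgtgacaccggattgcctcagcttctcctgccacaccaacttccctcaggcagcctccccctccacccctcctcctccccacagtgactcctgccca
Both strands were searched for the AP-1 letters TGANTCA, for GGAATG as bound by TEAD factors, for TGATGNAA of the amino acid response, for the GC box as GGGCGG, for the E-box letters CACGTG, for TATAAA of the TATA box, for the letters CCAAT, and for the CArG box. A match of one could overlap a match of another. Krt7 held 4 GC boxes, at -141, -128, -56 and -24 from its start, and Nes held 2. Each searched window ran from 250 bases before the start to 50 after it. A GC box was present in 35.7% of all 32851 such windows. Vim held TATAAA at -32, a motif in 13.6% of windows, and CCAAT letters at 2 places, a motif in 37.4%. Krt8 held TATAAA across its start, and no searched letters were found in the windows of Krt18 or in either of the starts listed for Cdsn. Among the sequences used here, Krt19 had no entry.

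Total estimated counts ran from 18075610 to 24733212 per library. Levels below are normalized counts, which are estimated counts divided by size factors computed over all 18 libraries, and a level is compared between genes only as TPM, a share of all transcripts in a library after division by transcript length. Actl6a, the target of the siRNA, stood at 718, 1158 and 842 normalized counts in siControl. It stood at 50.01, 58.1 and 19.9 in the siArp4 libraries, while siArp4+CK666 had 9.34, 23.6 and 17.9. Of 12 MSC markers, 9 reached a mean of 10 normalized counts in control cells, with Pdgfrb at 7397 and Cxcl12 at 33596. Thy1, which is often used to define MSC, was at 0 in all 18 libraries, and Nt5e had an estimated count of at most 8.26. In bulk RNA, fewer cells of a type cannot be told apart from less RNA per cell.

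**Figure D1:**
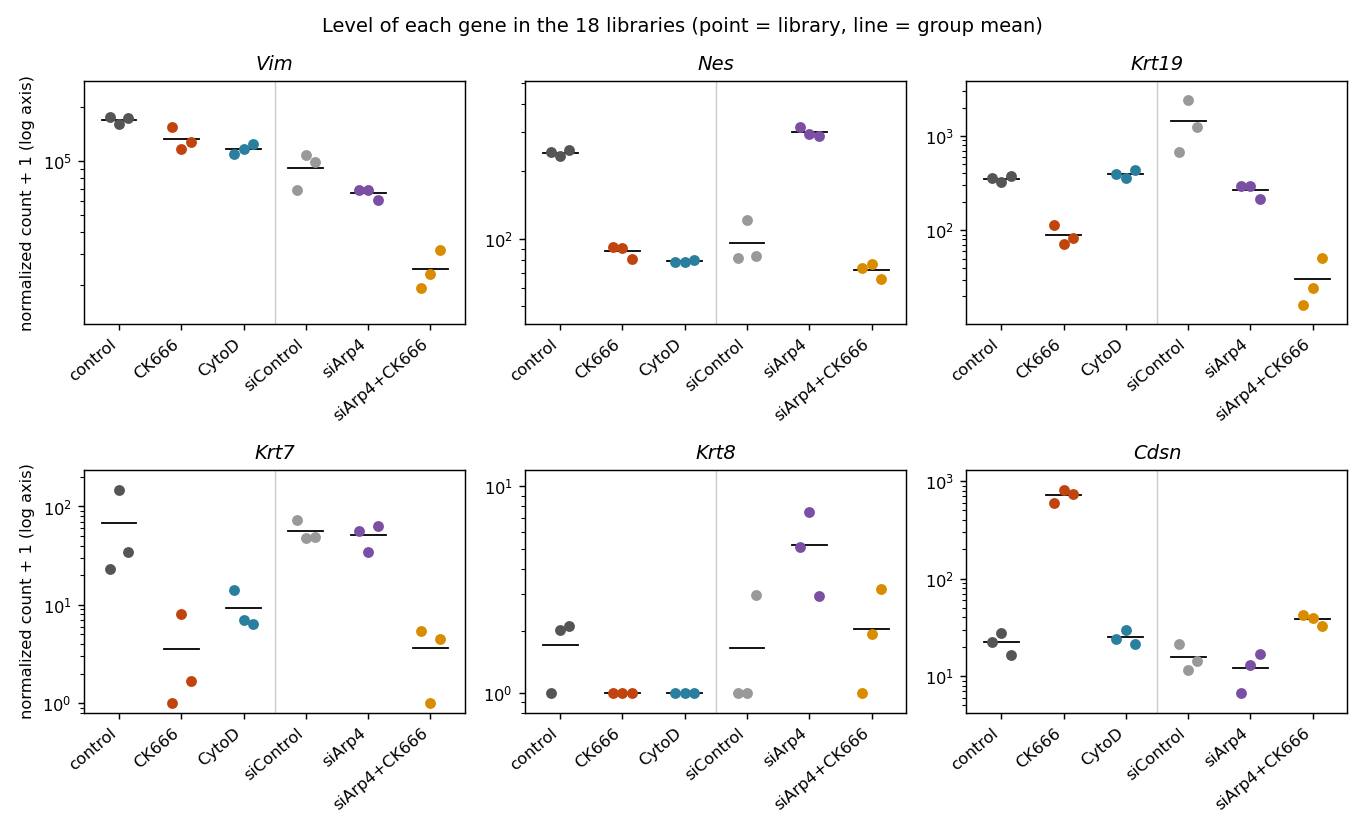
Normalized counts plus 1 on log axes for Vim, Nes, Krt19, Krt7, Krt8 and Cdsn, with a point per library and a line at the mean of each group of 3, the first experiment left of the grey line and the second right of it. Vim was lowest in the 3 siArp4+CK666 libraries, Krt19 and Krt7 were low in both groups given CK666, and Cdsn was highest in the 3 CK666 libraries.

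Vim was the 4th most abundant gene per length in control cells, at 8977 ± 296 TPM (SD, n = 3), and took 0.851% of the counts of a library. Its gene (ENSMUSG00000026728.9) spans chromosome 2 from 13573927 to 13582826, plus strand (GRCm38, as are all positions below). Normalized counts were 176030, 161739 and 175394 in control, 154689, 116155 and 127149 in CK666, and 109966, 116715 and 124230 in CytoD. The control libraries lay above all 6 libraries given a compound, and the ranges of CK666 and CytoD overlapped. In the second experiment Vim stood at 68332, 107939 and 98631 in siControl, 69153, 69103 and 60441 in siArp4, whereas siArp4+CK666 gave 19400, 23074 and 31498. All 3 siArp4+CK666 libraries lay below every other library of the series. There Vim was 153rd in order per length, at 1060 ± 121 TPM, and took 0.118% of the counts.

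Nes (ENSMUSG00000004891.16, chromosome 3 from 87971078 to 87980451, plus strand) was a low transcript, at 4.54 ± 0.110 TPM in control. Its normalized counts were 243, 233 and 249 in control, 90.6, 89.3 and 79.7 in CK666, and 77.7, 77.1 and 79.0 in CytoD. Every library of either compound lay under the control range. In transfected cells the order was different, with 81.1, 119.5 and 82.0 in siControl, 317, 292 and 288 in siArp4, while siArp4+CK666 gave 72.9, 76.0 and 65.1. The siArp4 libraries were the highest of the series and lay above all 3 control libraries, while the siArp4+CK666 libraries were the lowest.

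Krt19 (ENSMUSG00000020911.14, chromosome 11 from 100140810 to 100148665, minus strand) was the most abundant of the 4 keratins per length, at 25.7 ± 1.66 TPM in control. Control libraries held 357, 322 and 375 normalized counts, those of CK666 112, 70.5 and 81.7, and those of CytoD 396, 356 and 436. CK666 libraries were all below control, whereas CytoD overlapped control. In siControl Krt19 spread widely, with 669, 2389 and 1252, while siArp4 libraries held 295, 296 and 212 and siArp4+CK666 libraries 15.2, 23.7 and 49.4. The 3 groups of transfected cells did not overlap, and the siArp4+CK666 libraries held the lowest values of the series.

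Krt7 (ENSMUSG00000023039.17, chromosome 15 from 101411043 to 101430313, plus strand) was present at 1.92 ± 1.98 TPM in control. It overlaps Gm671 on the other strand, which had a mean count of 0.49. Control libraries held 22.3, 147 and 33.5 normalized counts, CK666 libraries 0, 7.10 and 0.694, and CytoD libraries 13.3, 6.05 and 5.44. Replicate 2 of control was far above the others, and the lowest control library still lay above the highest library of either compound. In the second experiment Krt7 stood at 71.3, 47.3 and 48.2 in siControl, 55.3, 33.8 and 62.8 in siArp4, but at 4.47, 0 and 3.49 once CK666 was added. The siControl and siArp4 libraries overlapped, and all siArp4+CK666 libraries lay below them.

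The classic pair of simple epithelia was hardly detected. Krt8 (ENSMUSG00000049382.10, chromosome 15 from 101996698 to 102004482, minus strand) was at 0 in 10 of 18 libraries and never passed an estimated count of 5.90. Its highest group values were in siArp4, at 4.11, 6.53 and 1.94 normalized counts. Krt18 (ENSMUSG00000023043.7, chromosome 15 from 102028180 to 102032027, plus strand) was at 0 in 15 libraries and had an estimated count of at most 1.95. No fold change is given for either, since nearly all libraries lay within the 3 counts that a count of 0 allows.

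Cdsn (ENSMUSG00000039518.7, chromosome 17 from 35552128 to 35557180, plus strand) had 21.5, 26.7 and 15.4 normalized counts in the control libraries, 596, 817 and 733 with CK666, and 22.9, 28.7 and 20.3 with CytoD. Every CK666 library was far above the other 15, and CytoD overlapped control. In TPM the level was 0.912 ± 0.253 in control and 30.2 ± 8.04 in CK666. In transfected cells the counts were 20.1, 10.6 and 13.3 in siControl, 5.72, 11.9 and 15.9 in siArp4, whereas siArp4+CK666 held 41.4, 38.8 and 31.7. The siArp4+CK666 libraries lay above all libraries but those of CK666, at a small part of the CK666 level.

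Between the highest and the lowest group mean Cdsn differed 64.1-fold, Krt19 48.8-fold, Krt7 26.0-fold, Vim 6.94-fold and Nes 4.19-fold. The lowest Krt7 mean, in CK666, was 2.60 normalized counts, so its fold is poorly set. Cdsn and Krt19 were chosen for such differences. Vim ran from control through CK666, CytoD, siControl and siArp4 to siArp4+CK666, with overlap between CK666 and CytoD and between siControl and siArp4. Nes ran from siArp4 through control, siControl, CK666 and CytoD to siArp4+CK666, and siControl overlapped CK666. For Krt19 the order was siControl, CytoD, control, siArp4, CK666 and siArp4+CK666, with overlap only between CytoD and control. For Krt7 it was control, siControl, siArp4, CytoD, siArp4+CK666 and CK666, and for Cdsn CK666, siArp4+CK666, CytoD, control, siControl and siArp4. Krt7 and Cdsn each had overlap between 3 neighbouring pairs of groups, among them control with siControl and siControl with siArp4.

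Changes between groups were tested with DESeq2, and a gene was called where its log2 fold change was over 1 in size and its adjusted p was below 0.01. Of the 7 members, 5 passed the filter on low counts that DESeq2 applies, and Krt8 and Krt18 did not in any comparison. The first comparison asked how the cells responded to loss of actin branching. Under CK666, 3 members were called lower than control, beside 6.06% of all genes tested, and apart from Cdsn 0 were called higher, beside 4.89%. Krt7 fell by 4.70 on the log2 scale (SE 0.97, DESeq2 adjusted p 8.34e-06), Krt19 fell by 1.98 (SE 0.19, adjusted p 4.87e-23) and Nes fell by 1.47 (SE 0.18, adjusted p 4.4e-15). The Krt7 value was -7.17 without CK666 replicate 2, the library that held most of its counts under CK666, and -3.44 without control replicate 2. Vim differed by -0.35 (SE 0.12, adjusted p 0.0129), short of both limits. Cdsn, chosen on this contrast, was 34.1 times as high as in control, a log2 difference of 5.09 (SE 0.26).

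CytoD asked the same of a compound that acts on actin filaments rather than branches. Here 2 members were called lower than control, beside 4.32% of genes tested, and 0 higher, beside 4.8%. Nes fell by 1.63 (SE 0.18, DESeq2 adjusted p 9.98e-18) and Krt7 fell by 3.07 (SE 0.88, adjusted p 0.00193). The Krt7 call was not kept without control replicate 2 (-1.80, adjusted p 0.157), without CytoD replicate 2 (adjusted p 0.017) or replicate 3 (adjusted p 0.0187), nor by edgeR (adjusted p 0.0241). It was also lost with replicate number added to the fit as a block (-2.44, adjusted p 0.0119). Vim was lower by 0.55 in log2 size (-0.55, SE 0.12, adjusted p 3.96e-05), under the fold change limit. Krt19 differed by 0.17 (SE 0.18, adjusted p 0.494) and Cdsn, by description, by 0.17 (SE 0.31).

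Set against CytoD directly, CK666 had 1 member called lower, beside 6.74% of genes tested, and apart from Cdsn 0 called higher, beside 5.08%. Krt19 was lower under CK666 by a log2 fold change of -2.15 (SE 0.19, DESeq2 adjusted p 3.83e-27). Cdsn was higher by 4.93 (SE 0.26), a description since it uses the CK666 libraries that Cdsn was chosen on. Nes differed by 0.17 (SE 0.19, adjusted p 0.538), Vim by 0.20 (SE 0.12, adjusted p 0.187) and Krt7 by -1.64 (SE 1.01, adjusted p 0.191). These comparisons share libraries, so their agreement or difference is read from the direct test alone.

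**Figure D2:**
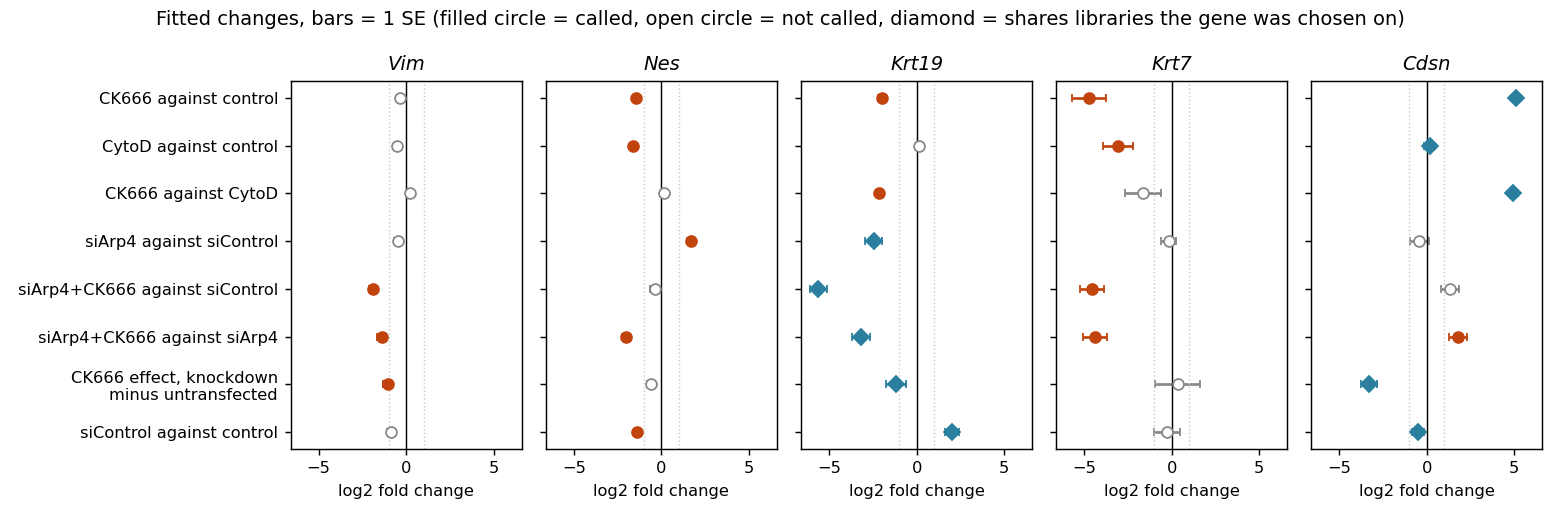
Log2 fold changes with bars of 1 SE for Vim, Nes, Krt19, Krt7 and Cdsn in 8 comparisons, with filled circles for called changes, open circles for others, and diamonds where the comparison shares libraries with the contrast on which the gene was chosen. Nes was lower under CK666 (-1.47) and CytoD (-1.63) and higher in siArp4 (1.66), while Vim passed the limits only where siArp4 and CK666 were combined.

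In siArp4 against siControl 1 member was called higher, beside 6.69% of genes tested, and apart from Krt19 0 lower, beside 9.49%. Nes rose by 1.66 (SE 0.22, DESeq2 adjusted p 1.73e-12). The Krt19 difference was -2.44 (SE 0.48), a description because this comparison shares the siControl libraries with the contrast Krt19 was chosen on, and it was -1.89 without siControl replicate 2, which held the highest count. Vim differed by -0.49 (SE 0.24, adjusted p 0.101), Krt7 by -0.17 (SE 0.43, adjusted p 0.813) and Cdsn by -0.44 (SE 0.54, adjusted p 0.573).

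With CK666 on top of the knockdown, 2 members apart from Krt19 were called lower than siControl, beside 12.4% of genes tested, and 0 were called higher, beside 8.06%. Vim fell by 1.90 (SE 0.24, DESeq2 adjusted p 4.54e-14) and Krt7 fell by 4.54 (SE 0.69, adjusted p 5.06e-10). Krt19, chosen here, was at 29.4 ± 17.8 normalized counts against 1437 ± 875, a log2 difference of -5.61 (SE 0.50). Nes differed by -0.39 (SE 0.24, adjusted p 0.194), and Cdsn by 1.32 (SE 0.50, adjusted p 0.0223).

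Within knockdown cells 3 members apart from Krt19 were called lower with CK666, beside 4.12% of genes tested, and 1 was called higher, beside 1.63%. Vim fell by 1.41 (SE 0.24, DESeq2 adjusted p 1.47e-07), Krt7 fell by 4.37 (SE 0.69, adjusted p 9.24e-09) and Nes fell by 2.05 (SE 0.23, adjusted p 2.56e-17). Krt19 was lower by -3.17 in log2 units (SE 0.50), a description for the same reason as above. Cdsn rose by 1.76 (SE 0.51, adjusted p 0.00616). The contrast on which it was chosen used none of these libraries, but their earlier results were known when it was picked. The Cdsn call was lost by edgeR (adjusted p 0.0373) and with replicate number added to the fit as a block. It was also lost without any 1 library of siArp4 or siArp4+CK666 and without siControl replicate 3. Over those last 7 fits adjusted p ran from 0.0118 to 0.102. The 3 siArp4+CK666 libraries were each above all 3 siArp4 libraries.

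The size of the CK666 effect was then compared between knockdown and untransfected cells in a fit over all 18 libraries. In that difference 1 member apart from Cdsn was called lower, beside 2.51% of genes tested, and 0 higher, beside 1.89%. Vim was lowered more by CK666 in knockdown cells, by a log2 difference of -1.06 (SE 0.27, DESeq2 adjusted p 0.00172). The call was lost by edgeR (adjusted p 0.0142) and without CK666 replicate 1 (adjusted p 0.0125) or siArp4 replicate 1 (adjusted p 0.0109), and without siArp4+CK666 replicate 1 the difference was -0.92 (adjusted p 0.00954). The Cdsn difference was -3.32 (SE 0.46), given as a description. Krt19 differed by -1.18 (SE 0.57), also a description, Nes by -0.59 (SE 0.23, adjusted p 0.0787) and Krt7 by 0.35 (SE 1.28, adjusted p 0.908). Knockdown and transfection cannot be told apart in this contrast.

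The control groups of the experiments also differed in these genes. In siControl against control 1 member was called lower, beside 10.1% of genes tested, and apart from Krt19 0 higher, beside 14.1%. Over all genes 2037 were called higher and 1461 lower. Without siControl replicate 2, 1341 were called higher, and without siControl replicate 1, 2254 were called lower. Nes fell by 1.39 (SE 0.16, DESeq2 adjusted p 2.67e-16). The Krt19 difference was 2.03 (SE 0.38), a description since it uses the siControl libraries that Krt19 was chosen on. Vim was lower by -0.90 in log2 units (SE 0.19, adjusted p 1.19e-05), under the fold limit, and passed it without siControl replicate 2 (-1.03, adjusted p 1.64e-06). Krt7 differed by -0.27 (SE 0.74, adjusted p 0.784) and Cdsn, by description, by -0.50 (SE 0.36). Transfection, the control siRNA and the experiment cannot be told apart here.

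The wider keratin family was mostly silent. Of 54 keratin genes in the table, 28 of type I and 26 of type II, 39 stayed under a mean of 3 normalized counts in every group, 9 reached a mean of 10 in some group, and 4 reached 100, namely Krt10, Krt13, Krt19 and Krt80. Krt80, a type II keratin that lies 40881 bases from Krt7, stood at 224 ± 12.8 normalized counts in control, 20.1 ± 6.02 in CK666, 33.4 ± 4.40 in CytoD, 94.6 ± 13.9 in siControl, 104 ± 12.9 in siArp4 and 6.25 ± 4.75 in siArp4+CK666. It fell by 3.47 under CK666 (DESeq2 adjusted p 2.34e-33), fell by 2.75 under CytoD (adjusted p 1.01e-24) and fell by 3.97 in siArp4+CK666 against siArp4 (adjusted p 7.87e-16), and its difference in siArp4 alone was 0.10 (adjusted p 0.861). Krt10, a type I keratin of differentiating skin cells, fell by 2.16 under CK666 (adjusted p 5.24e-05) and rose by 2.17 in siControl against control (adjusted p 7.76e-06). Krt13, the type I keratin of moist stratified epithelia, differed by -1.30 under CK666 (adjusted p 0.0192) and by 1.26 under CytoD (adjusted p 0.0128), and was lower under CK666 than under CytoD by -2.55 (adjusted p 3.17e-07).

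**Figure D3:**
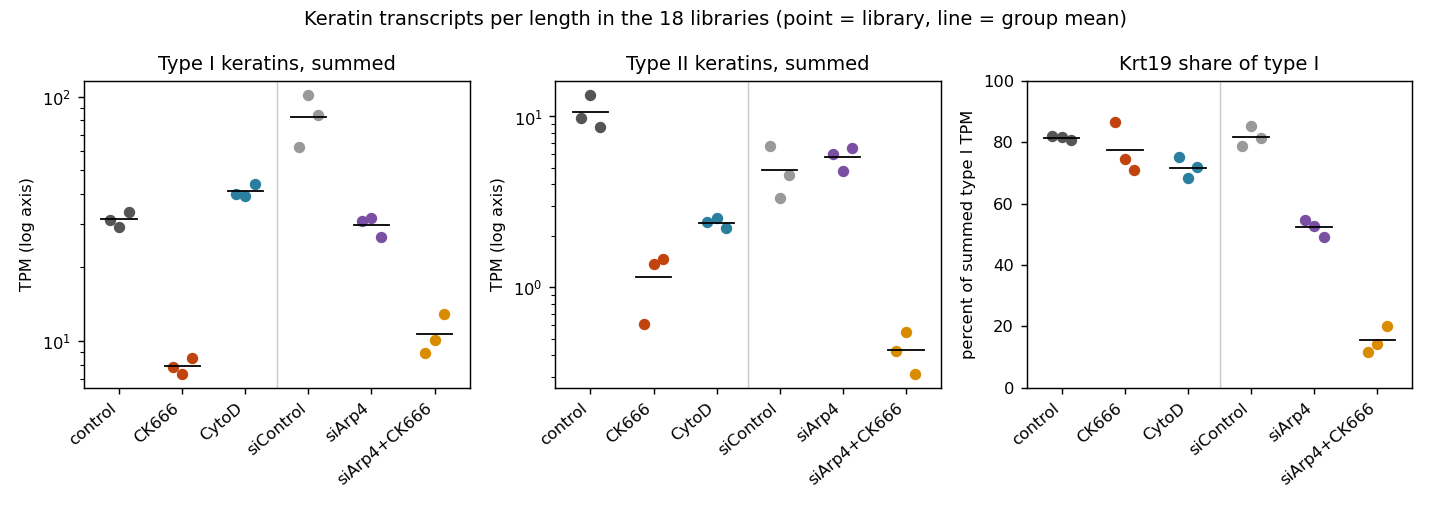
Summed TPM of the type I keratins and of the type II keratins on log axes, and the percentage of the type I sum that is Krt19, with a point per library and a line at the mean of each group of 3. Type I keratins were highest in siControl (82.8 TPM on average) and lowest in CK666 (7.89), and Krt19 held 15.5% of the type I sum in siArp4+CK666.

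Summed per length, type I keratins were at 31.5 ± 2.24 TPM in control, 7.89 ± 0.595 in CK666 and 41.1 ± 2.63 in CytoD. Type II keratins were at 10.6 ± 2.45, 1.14 ± 0.465 and 2.39 ± 0.159 TPM in the same groups, and in all 3 CytoD libraries the type I sum lay above the control libraries and the type II sum below them. In transfected cells the type I sum was 82.8 ± 19.7 TPM in siControl, 29.9 ± 2.78 in siArp4 and 10.7 ± 2.06 in siArp4+CK666. The type II sum was 4.89 ± 1.73, 5.80 ± 0.895 and 0.426 ± 0.117 TPM. The sum of type II over the sum of type I was 0.342 ± 0.103 in control, 0.145 ± 0.0590 in CK666, 0.0585 ± 0.00738 in CytoD, 0.0651 ± 0.0388 in siControl, 0.197 ± 0.0473 in siArp4 and 0.0418 ± 0.0157 in siArp4+CK666. Among the 4 keratins described here alone, (Krt7 + Krt8) over (Krt18 + Krt19) per length was 0.0794 ± 0.0852 in control, 0.0140 ± 0.0215 in CK666, 0.00810 ± 0.00429 in CytoD, 0.0216 ± 0.0174 in siControl, 0.0886 ± 0.0299 in siArp4 and 0.0643 ± 0.0335 in siArp4+CK666. Type I transcripts exceeded type II in every library by these sums, and the spread of the ratio in control came from Krt7 in replicate 2. Krt19 made up 81.5% ± 0.686 of the type I sum in control, 77.4% ± 8.21 in CK666, 71.8% ± 3.39 in CytoD, 81.9% ± 3.20 in siControl, 52.3% ± 2.78 in siArp4 and 15.5% ± 4.31 in siArp4+CK666. Vim exceeded all keratins together 213 ± 9.81 times per length in control, 741 ± 60.9 times in CK666 and 144 ± 5.93 times in CytoD. In transfected cells it did so 41.0 ± 13.0 times in siControl, 78.4 ± 2.26 times in siArp4 and 96.4 ± 6.52 times in siArp4+CK666.

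Filament genes related to Vim and Nes were read from lists. Of 5 type III genes, Vim among them, 0 were called in CK666 or in CytoD against control. Against siControl 2 of 5 tested were called lower in siArp4, beside 9.49% of all genes tested, and 4 of 5 in siArp4+CK666, beside 12.4%. Desmin (Des), the filament of muscle, stood at 679 ± 208 normalized counts in siControl and at 52.7 ± 24.8 in siArp4, where it fell by 3.70 (DESeq2 adjusted p 2.11e-19), and it fell by 3.61 to 55.4 ± 15.3 in siArp4+CK666 (adjusted p 8.58e-19). Des differed by 0.09 (adjusted p 0.951) when CK666 was added to the knockdown. Synemin (Synm), a type IV partner of desmin and vimentin, fell by 1.499 under CK666 (adjusted p 9.47e-07), rose by 1.22 under CytoD (adjusted p 5.53e-06) and fell by 1.16 in siArp4 (adjusted p 0.00183). Of the 3 lamins, the filaments of the nuclear envelope, Lmnb1 fell by 1.77 under CK666 (adjusted p 1.44e-103), fell by 1.08 under CytoD (adjusted p 1.55e-39) and fell by 1.10 in siArp4+CK666 against siArp4 (adjusted p 5.49e-10). Lmnb2 fell by 1.16 under CytoD (adjusted p 7.68e-23), and Lmna, at 20619 ± 357 normalized counts in control, was called in no comparison.

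**Figure D4:**
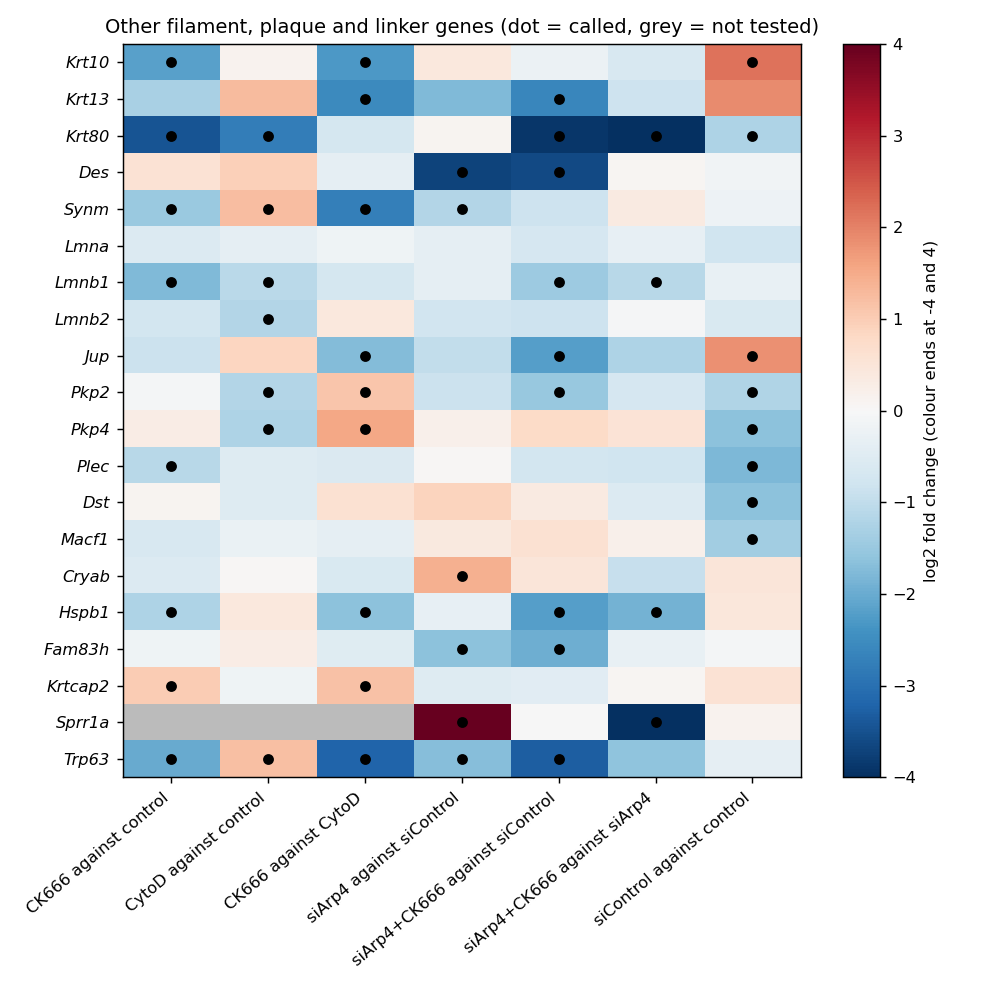
Log2 fold change (colour) of 20 related genes in 7 comparisons, with a dot where a change was called and grey where the gene was not tested. Krt80 and Lmnb1 were called lower under CK666, under CytoD and in both comparisons of siArp4+CK666, and Des only in the comparisons of siArp4 and siArp4+CK666 with siControl.

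Of 18 desmosome and plaque genes, 6 were tested under CK666 and 1 was called lower, beside 6.06% of all genes tested, which was periplakin (Ppl, -2.87, DESeq2 adjusted p 0.00301). Under CytoD 2 of the 5 tested were called lower, beside 4.32%, plakophilins Pkp2 (-1.18, adjusted p 1.71e-31) and Pkp4 (-1.25, adjusted p 5.18e-24). Desmoplakin (Dsp), which ties keratin filaments to desmosomes, had an estimated count of at most 1.01, and the desmosomal cadherin Dsg2 of at most 1.03. In siControl against control 1 of 5 tested was called higher, beside 14.1%, and 3 lower, beside 10.1%. Plakoglobin (Jup) was lower in siArp4+CK666 than in siControl by -2.22 (adjusted p 9.18e-06). Of 12 linkers and filament chaperones, all tested, 2 were called lower under CK666, beside 6.06%, plectin (Plec, -1.10, adjusted p 6.8e-08) and the small heat shock protein Hspb1 (-1.22, adjusted p 0.00822), and 1 higher, beside 4.89%, Krtcap2 (1.004, adjusted p 2.01e-09). In siControl against control 4 of the 12 were called lower, beside 10.1%, and 0 higher. In siArp4 Cryab, a chaperone of desmin filaments, rose by 1.41 (adjusted p 0.00383) and Fam83h, a keratin-binding protein, fell by 1.65 (adjusted p 1.06e-20).

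Of 20 genes of the cornified layer, 2 were tested in CK666 against control, Cdsn and 1 other. The other was Casp14, an enzyme of cornification, with means of 17.3 ± 2.76 normalized counts in control, 4.13 ± 0.557 under CK666 and 3.69 ± 2.11 under CytoD, a change that was called lower under CytoD (-2.25, DESeq2 adjusted p 0.00801). Sprr1a, a cornified envelope precursor, stood at 4.14 ± 3.39 in siControl, 148 ± 31.4 in siArp4 and 3.51 ± 2.79 in siArp4+CK666. It rose by 5.28 in siArp4 (adjusted p 7.73e-17) and fell by 5.29 when CK666 was added (adjusted p 3.76e-16), while Cdsn rose by 1.76 in the latter comparison.

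Markers of other cells were read beside the keratins. Of 17 epithelial markers, 1 or 2 reached a mean of 10 normalized counts in a group, Epcam was at 0 in all libraries, and Cdh1 had an estimated count of at most 1.96. In 5 of the 6 groups the leading one was Trp63, a factor of basal epithelial cells. In siArp4+CK666 Rab25 (10.6 ± 15.7) and Esrp2 (10.51 ± 17.6) reached a mean of 10, each with an SD above its own mean. Trp63 was at 56.8 ± 1.24 in control, 14.1 ± 2.70 in CK666, 132 ± 14.0 in CytoD, 44.2 ± 6.07 in siControl, 13.9 ± 5.68 in siArp4 and 4.87 ± 2.18 in siArp4+CK666. The summed epithelial markers ran from 63.9 to 72.2 in control, 19.5 to 32.9 in CK666, 138 to 164 in CytoD, 53.7 to 58.7 in siControl, 12.6 to 28.4 in siArp4 and 4.93 to 67.4 in siArp4+CK666, and their part in the keratin values was not tested. The 7 mesothelial markers other than keratins summed to 1.90 to 14.3 in control, 0 to 4.36 in CK666, 3.37 to 4.38 in CytoD, 0.923 to 2.43 in siControl, 21.3 to 30.2 in siArp4 and 4.71 to 6.97 in siArp4+CK666. Msln led this list and rose by 4.66 in siArp4 (DESeq2 adjusted p 2.96e-05), to 25.5 ± 4.46. The other 6 genes of the list were at 0 in all siArp4 libraries. The part of this list in the keratin values was not tested. For Nes, 7 endothelial markers summed to 17.7 to 58.2 in control, 69.4 to 237 in CK666, 68.6 to 83.3 in CytoD, 14.8 to 30.1 in siControl, 14.7 to 124 in siArp4 and 50.3 to 87.1 in siArp4+CK666. In the untransfected groups most of that sum was Vwf, at 32.6 ± 18.1 in control, 128 ± 86.8 in CK666 and 67.6 ± 8.54 in CytoD. There 3 of the 7 genes were at 0 in all libraries. The 8 blood cell markers summed to 105 to 166 in control, 127 to 189 in CK666, 257 to 266 in CytoD, 79.9 to 256 in siControl, 77.5 to 114 in siArp4 and 62.2 to 298 in siArp4+CK666. The 8 glial and muscle markers summed to 732 to 825, 1033 to 1346, 1391 to 1599, 519 to 916, 85.3 to 139 and 65.3 to 100.4 in the same order, and in siControl most of that sum was Des, at 679 on average. The part of these markers in the Nes values was not tested.

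Over the 18 libraries the profiles of the members differed from each other. Pearson's r of log2(normalized count + 1) was 0.68 between Krt19 and Krt7, 0.63 between Krt7 and Nes, 0.62 between Krt19 and Vim, 0.28 between Nes and Vim and -0.66 between Cdsn and Krt7. These are descriptions over libraries that share their groups. Among genes with a mean of at least 100 normalized counts, the profile most like that of Vim was Ska1 (r 0.98), followed by Plp2 and Pbk. Krt19 was most like Fdps (r 0.98), Sri and Fhl2, Krt7 most like Smpd3 (r 0.91), Lmnb1 and Emp1, and Nes most like Axl (r 0.94), Dusp1 and Txndc5. Cdsn was most like Gpt2 (r 0.97), Zfp598 and Lonrf1. Gpt2, an alanine aminotransferase, stood at 2085 normalized counts in CK666, 387 in control and 495 in siArp4+CK666 on average, against 715, 21.2 and 37.3 for Cdsn.

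Genes beside the members on the chromosome were read within 100000 bases, where their mean over the 18 libraries was at least 10 normalized counts. Krt80 was called with Krt7 in CK666 and CytoD against control and in both comparisons of siArp4+CK666. The Krt7 call under CytoD was lost by edgeR and without some single libraries. Near Krt19 lay the type I keratins Krt13, at 19244 bases, and Krt36, at 35184 bases, and both were lower under CK666 than under CytoD, as Krt19 was (Krt36 -3.56, DESeq2 adjusted p 1.65e-05). Of the 3 neighbours of Cdsn, Tcf19, at 35304 bases, fell by 2.33 under CK666 (adjusted p 5.46e-62), and Vars2, at 98454 bases, differed by 0.60 there (adjusted p 0.0436) and was not called. Cchcr1, at 21113 bases, was not called there and fell by 1.198 in siArp4+CK666 against siArp4 (adjusted p 3.73e-09). Of 9 neighbours of Nes, 1 was called under CK666, beside 4.89% of all genes tested called higher and 6.06% lower. It was Mrpl24 at 47406 bases, which rose by 1.11 (adjusted p 1.02e-07). Under CytoD 2 were called, beside 4.8% of genes tested called higher and 4.32% lower. Bcan at 7080 bases fell by 1.96 (adjusted p 0.00108) and Gpatch4 at 62657 bases fell by 1.84 (adjusted p 2.42e-24). In siArp4 2 were called, beside 6.69% of genes tested called higher and 9.49% lower. Crabp2 at 17702 bases rose by 2.82 (adjusted p 0.000317) while Naxe at 76069 bases fell by 2.43 (adjusted p 3.24e-08). In siControl against control 4 were called, beside 14.1% of genes tested called higher and 10.1% lower.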

How the data were processed

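RNA was sequenced from 18 libraries of mouse MSC, and groups and replicate numbers came from the sample labels. Per the study's methods the authors aligned paired reads to GRCm38 (mm10) and quantified them with Salmon 1.2.1 at default settings against GENCODE vM25, and they deposited 1 table of estimated counts per gene, not scaled between samples. How transcripts were summed to genes is not given in the sources used here. Strand was not recorded, so overlapping genes on opposite strands cannot be separated, and near-identical copies could share reads. Totals were 18075610 to 24733212 per library, and depth limits genes with few counts.

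Here these values were rounded to whole numbers (no library total changed by more than 277) and tested with the two-sided Wald test of DESeq2 1.42.0 (R 4.3.3), with 9 libraries of each experiment in a fit and group as the only term. The difference between CK666 effects and siControl against control used all 18. Genes were called at a log2 fold change over 1 in size and a Benjamini-Hochberg adjusted p below 0.01 over all genes, with no shrinkage. No fold or p is given for Krt8 and Krt18. Symbols, positions and lengths came from GENCODE vM21 on the same build (54094 of 54347 identifiers matched), and promoters from RefSeq. TPM here used the longest protein-coding transcript. Correlations used log2(normalized count + 1). No pair of replicates was a repeat library (chi-square per degree of freedom at least 6.50). The siControl replicates differed most from each other, at 111 to 395.

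The members and gene lists were chosen with earlier results of these data known. Genes named are the members, Actl6a, listed genes that were called or reached a mean of 100 normalized counts in a group, and the 3 genes most like each member. Low markers (Epcam, Cdh1, Rab25, Esrp2, Thy1, Nt5e, Dsp, Dsg2) and neighbours within 100000 bases were added after values were seen. Alternatives were edgeR 4.0.16, TMM size factors, a filter (10 counts in 3 libraries), other fold rules, a replicate block, all libraries in 1 fit and leaving out each library. The tests were tried on simulated counts first.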

Additional observations from a re-analysis of the deposited data

Results flagged for a closer look

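The effect of CK666 on Vim was called different between knockdown and untransfected cells in a test over all 18 libraries. As given above, the call was lost by edgeR and without CK666 replicate 1 or siArp4 replicate 1. Without siArp4+CK666 replicate 1 the difference was -0.92, under the fold limit. With all libraries the log2 difference was -1.06 (SE 0.27, DESeq2 adjusted p 0.00172). All 3 siArp4+CK666 libraries lay below the 3 siArp4 libraries, and all 3 CK666 libraries below the 3 control libraries. For Cdsn the same fit gave -3.32 (SE 0.46), with a log2 change of 5.09 in untransfected and 1.76 in knockdown cells, which is a description with no test because Cdsn was chosen on the former. The knockdown cells were also transfected, and the part of transfection in either value cannot be told apart from that of the knockdown.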

How the results depend on the processing

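Over 953 values under alternatives, 285 counts of members stayed within 1.5 times the reported count and 28 did not, while of single-gene values 612 kept direction and call, 18 lost the call, 2 gained it and 8 changed sign. Below, counts are of members called. Unlike above, they include Cdsn and Krt19 also where those are only described. For these 2 genes the counts show the effect of processing and are no test. In CytoD against control the 2 called lower became 1 by edgeR, 0 in a test against a 2-fold change and 1 to 2 when a library was left out. In siArp4+CK666 against siArp4 the 1 called higher became 0 by edgeR and in the 2-fold test, and 0 to 1 without a library. In siArp4 against siControl the 1 higher and 1 lower became 0 and 0 in the 2-fold test. In the difference between CK666 effects the 2 called lower became 1 by edgeR, 1 in the 2-fold test and 1 to 2 without a library. In siControl against control the 1 called lower became 2 with no fold change minimum, 0 in the 2-fold test and 1 to 2 without a library, and the 1 called higher became 0 in the 2-fold test. In siArp4+CK666 against siControl the 0 called higher became 1 with all 18 libraries in 1 fit. The 2-fold test asks for more by construction. The cause of the other moves was not tested.

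Values that changed sign when a library was left out were all uncalled. Cdsn in CytoD against control ran from -0.023 to 0.36, Krt7 in siArp4 against siControl from -0.34 to 0.055, Krt7 in the difference between CK666 effects from -0.93 to 2.82, and Krt7 in siControl against control from -0.68 to 1.005. The sample labels do not say whether replicate numbers pair the libraries. Of 18 correlations of deviations between libraries of the same number, 4 were over 0.1 (-0.347 to 0.592). With 3 libraries per group these cannot decide it. With a replicate block, 1 member instead of 2 was called lower in CytoD against control, and 0 instead of 1 higher in siArp4+CK666 against siArp4. Over all genes, edgeR called 115 higher and 351 lower in siArp4+CK666 against siArp4, where DESeq2 called 230 and 581, and 158 and 226 against 256 and 339 in the difference between CK666 effects. With fewer than about 10 counts, as for Krt8 and Krt18, depth does not resolve group differences.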
